A study of Mus musculus with 4 samples.

Results

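Cytosolic ribosomal proteins are the proteins that, with ribosomal RNA, build the ribosomes of the cytoplasm. Their genes were taken from the RNA-seq table by name and biotype: protein-coding rows with an Rpl or Rps symbol and a number, together with Rpsa, Rplp0, Rplp1 and Rplp2, leaving out Rpl3 and Rpl3l. This gave 82 of the 57180 genes in the table, 49 of the large and 33 of the small subunit. The libraries were made from tibialis anterior (TA) muscle, a limb muscle rich in fast fibers, of wild-type C57BL/6J mice that the study's methods describe as male. Exercise mice (2 libraries) had 4 weeks of treadmill running, in daily bouts of 45 min on 5 days of the week at a speed of 12 m/min. They had first been used to the treadmill over 5 days, starting from 8 m/min in bouts of 30 min. Control mice (2 libraries) were sedentary and of the same age. Mice of both groups entered the study at an age of 3 weeks, and muscle was taken at 8 weeks. The question behind the comparison was what changes in the RNA of young muscle with exercise. The sources used here do not say whether a library is 1 animal, so the p-values measure only the spread between these libraries.

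The small subunit of the ribosome decodes the mRNA and the large subunit joins the amino acids, and the proteins of both are needed in about equal numbers. Their mRNAs begin with a short stretch of C and U bases at the 5' end (the 5' TOP motif), through which the mTOR pathway and the RNA-binding protein Larp1 control their translation. In skeletal muscle, the making of new ribosomes is known as a step in the growth of fibers after training.

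Because that stretch is encoded at the start of the gene, the start regions were searched for an unbroken run of at least 8 C or T bases on the gene's strand, from 50 bases before to 50 bases after the start annotated by RefSeq on GRCm38.p6. A start region was at hand for 62 of the 82 genes, and 51 of them (82.3%) held such a run, against 39.3% of the 27025 genes with a start region. Runs of the same length on the opposite strand, read as A or G on the gene's strand, were in 24.2% of the ribosomal protein genes and in 41.1% of all genes. The longest run had a median of 10 bases in ribosomal protein genes and 7 in all genes. A run is only a match of letters and was not tied to a measured transcript start. Genes with the highest and with low log2 fold changes in Exercise muscle and the most abundant ones are shown with their longest run in capitals, 5' to 3' on the gene's strand. The first 4 had high log2 fold changes, the next 3 low ones, of which that of Rplp0 did not pass the test, and the last 2 were the most abundant of these genes with a start region.
Rpl38, chr11:114668568-114668597, plus strand: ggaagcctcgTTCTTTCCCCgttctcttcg
Rpl12, chr2:32961732-32961761, plus strand: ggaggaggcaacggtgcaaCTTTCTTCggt
Rpl41, chr10:128549119-128549148, minus strand: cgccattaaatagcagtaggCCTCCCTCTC
Rpl39, chrX:37085173-37085202, minus strand: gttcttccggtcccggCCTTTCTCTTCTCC
Rpl4, chr9:64173406-64173435, plus strand: agcgtggCCTTCTCCTCTCCCCgtcatggt
Rpl7a, chr2:26910789-26910818, plus strand: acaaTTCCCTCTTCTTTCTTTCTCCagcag
Rplp0, chr5:115559467-115559496, plus strand: ggaccgcctggTTCTCCTataaaaggcaca
Rps24, chr14:24490711-24490740, plus strand: agcggTCCTCTTTTCCTCCTCTCCagctcc
Rps27, chr3:90213631-90213660, minus strand: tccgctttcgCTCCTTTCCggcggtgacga
Long runs stood in genes with high and in genes with low log2 fold changes. The longest of the 9 shown, 21 bases, was in Rpl7a, whose rise was among the smallest. The longest run of Rplp0, 7 bases, was below the minimum. Relative to the annotated start, the runs began at −2 in Rpl38 and Rps27, at −14 in Rpl7a and at −37 in Rps24. They began at 12 in Rplp0, 27 in Rpl4, 37 in Rpl39, 40 in Rpl12 and 41 in Rpl41. Most of them thus did not begin at the annotated start. Over the 60 tested genes with a start region, the median log2 fold change was 0.81 in the 50 genes with a run and 0.79 in the 10 without.

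Values in the table are TPM, a length-corrected abundance that adds up to one fixed sum per library, so that a gene's TPM also depends on every other gene. Depth is unknown from TPM. The 50 most abundant genes held 50.5% and 45.8% of the TPM in the Exercise libraries, against 62.1% and 59.0% in the Control libraries. Several markers moved with the groups. Of 10 myofiber markers, 0 rose and 6 fell, where 6.19% of all tested genes fell. Their summed TPM was 65336 to 77068 in Exercise and 104462 to 116606 in Control. Of 7 tested satellite cell markers, 6 rose, where 55.3% of all tested genes did. Of 8 tested adipocyte markers, 0 rose and 6 fell, against the same 6.19% of all tested genes. Their summed TPM was 302 to 369 in Exercise and 462 to 875 in Control, with Cidec and Lep at 0 in 1 Exercise library. Lymphocyte markers summed to 0.840 to 0.970 TPM in Exercise and 0.790 to 1.32 TPM in Control. Fewer cells of a type and less RNA per cell cannot be told apart in bulk tissue. Xist, the RNA of the inactive X chromosome of females, was 0 and 0.0700 TPM in Exercise and 14.9 and 11.7 TPM in Control, although the study's methods describe males. The Y-linked Eif2s3y was 16.7 and 25.2 TPM in Exercise and 0.300 and 0 TPM in Control, while the Y-linked Ddx3y was 41.2 and 37.6 TPM in Exercise and 10.04 and 12.1 TPM in Control. Both Control libraries carry this pattern, so the exercise and the sex markers cannot be told apart, and no result can be given without those libraries. The part of all these markers in the results was not tested.

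Ribosomal protein mRNAs took a larger share of the RNA in Exercise muscle. Their summed TPM was 66198 and 73517 in Exercise (6.62% and 7.35% of the total), against 40357 and 43259 in Control (4.04% and 4.33%). Both Exercise libraries lay above both Control libraries, with a ratio of means of 1.67 (69858 ± 5175 in Exercise and 41808 ± 2052 in Control, SD, n = 2 each). A two-sided exact permutation test gave p = 0.333, the smallest that 2 libraries against 2 allow. Without the 5 most abundant genes the ratio was 1.68.

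Of the 82 genes, 80 passed the filter on low values (at least 1 TPM in at least 2 libraries). In limma on log2(TPM + 1), 78 of these 80 rose in Exercise and 0 fell, at a threshold of an adjusted p under 0.05. At that threshold the background over all 13288 tested genes was 55.3% higher and 6.19% lower. The counts were 79 and 0 at an unadjusted p under 0.05, for which no background was taken. The median log2 fold change was 0.78 over the 80 genes and 0.53 over all tested genes. For 79 of the 80 both Exercise libraries were above both Control libraries, which held for 72.8% of all tested genes. The median of these genes was thus above that of a table that was itself shifted upward. The size of that gap depended on the pseudocount, since the median was 0.78 against 0.63 over all tested genes with a pseudocount of 0.1, and 0.77 against 0.32 with 5. Rplp0 and Rps4l did not pass the test. Without Exercise replicate 2 the count of genes that rose was 36, against a background of 19.7%.

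**Figure D1:**
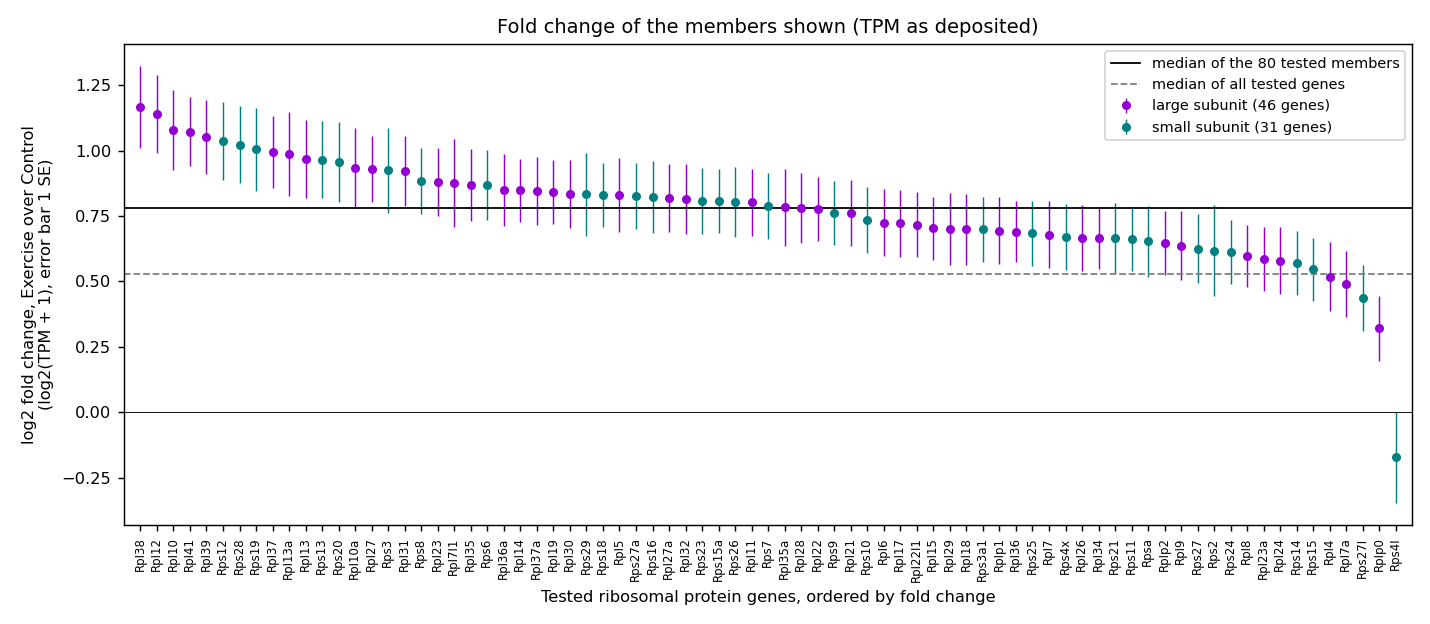
The log2 fold change (Exercise over Control) of 77 of the 80 tested ribosomal protein genes, from TPM as deposited and in order of size, with 1 standard error as the bar. Colors separate the large (46 genes) from the small subunit (31 genes), and the lines mark the medians of the tested members (0.78) and of all tested genes (0.53). The largest rises are all in the large subunit, genes of both subunits are mixed along most of the order, and Rps4l alone lies below 0.

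The count that rose depended on the scaling of the libraries. With median-of-ratios scaling, which sets the typical gene to no change (library factors of 1.20 and 1.31 in Exercise, 0.775 and 0.836 in Control), 7 genes rose and 1 fell, against a background of 10.6% higher and 16.8% lower. The median log2 fold change of the 80 genes was then 0.15, against 0.00 over all tested genes, and 64 of the 80 were positive. The summed TPM had a ratio of 1.07 after this scaling. With quantile normalization, which gives all libraries the same distribution, 66 genes rose where the background was 15.9%, with a median of 0.44 against 0.08 over all genes. With the TPM rescaled without the 50 most abundant genes, 54 of the remaining 78 rose, against a background of 25.9%. The median of the ribosomal protein genes lay above that of all tested genes under each of these scalings, while the number that passed the test ran between 7 and 78.

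**Figure D2:**
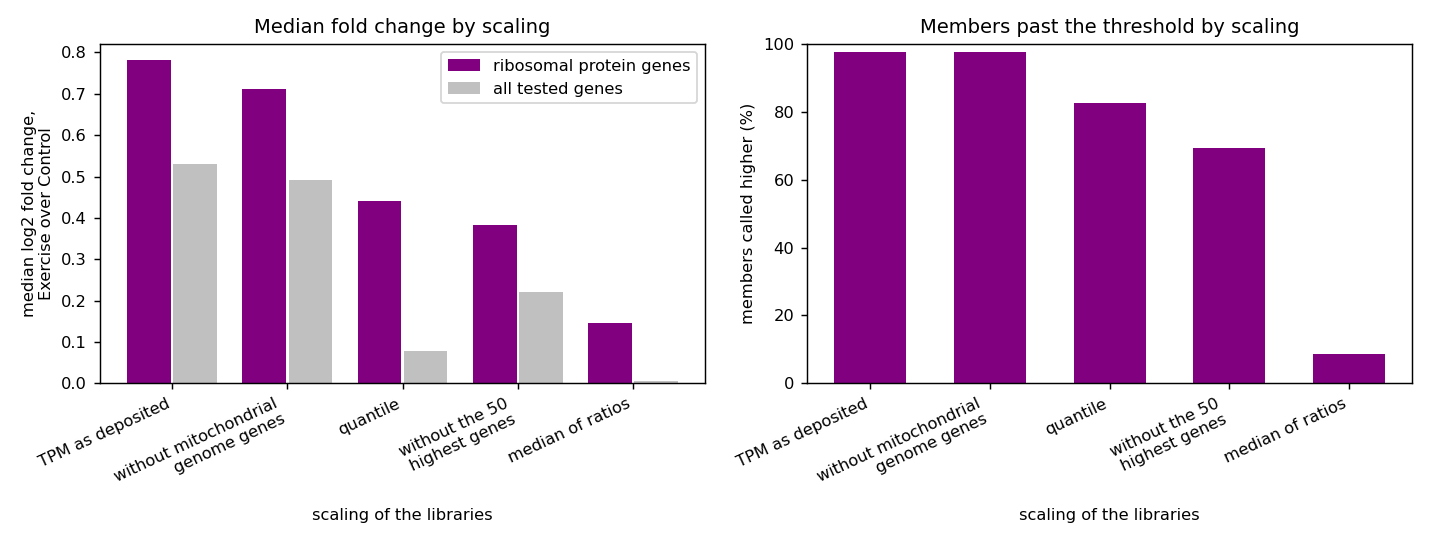
Left, the median log2 fold change (Exercise over Control) of ribosomal protein genes and of all tested genes under 5 scalings of the libraries. Right, the percentage of tested ribosomal protein genes called higher in Exercise. The median runs between 0.78 on TPM as deposited and 0.15 with median of ratios, and stays above that of all tested genes in each pair of bars.

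Several of the most abundant genes rose by less than the median of the ribosomal protein genes. Rps24, a small subunit protein mutated in some patients with Diamond-Blackfan anemia, was the highest, at 2692 and 2760 TPM in Exercise and 1758 and 1811 TPM in Control. Its log2 fold change was 0.61 ± 0.12 (SE, adjusted p = 0.00738), and −0.03 with median-of-ratios scaling. Rpl23a, a protein beside the exit of the peptide tunnel, had 2236 and 2261 TPM in Exercise and 1459 and 1541 TPM in Control. For both genes the gap between groups was many times that between libraries of a group. Rps27, a zinc-finger protein of the small subunit, had 2088 and 2198 TPM in Exercise and 1303 and 1481 TPM in Control. Rpl26, also near the tunnel exit, had 1733 and 1907 TPM in Exercise and 1126 and 1164 TPM in Control. Rps15 (1613 and 1720 TPM in Exercise, 1125 and 1158 TPM in Control) and Rps14, the gene lost in the human 5q- syndrome (1470 and 1571 TPM in Exercise, 998 and 1049 TPM in Control), followed the same order of libraries. These 6 genes had log2 fold changes of 0.55 to 0.67, below the median of 0.78, while Rpl41 and Rpl13a lay above it. Rpl13a had 1567 and 1942 TPM in Exercise and 813 and 954 TPM in Control, with a log2 fold change of 0.99 ± 0.16 (adjusted p = 0.00421). Across the 80 genes, level and log2 fold change had a Spearman correlation of −0.35, a description over genes that share the same 4 libraries. The order of levels itself was nearly kept, with a Spearman correlation of 0.98 between the Exercise and Control means of the 80 genes.

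**Figure D3:**
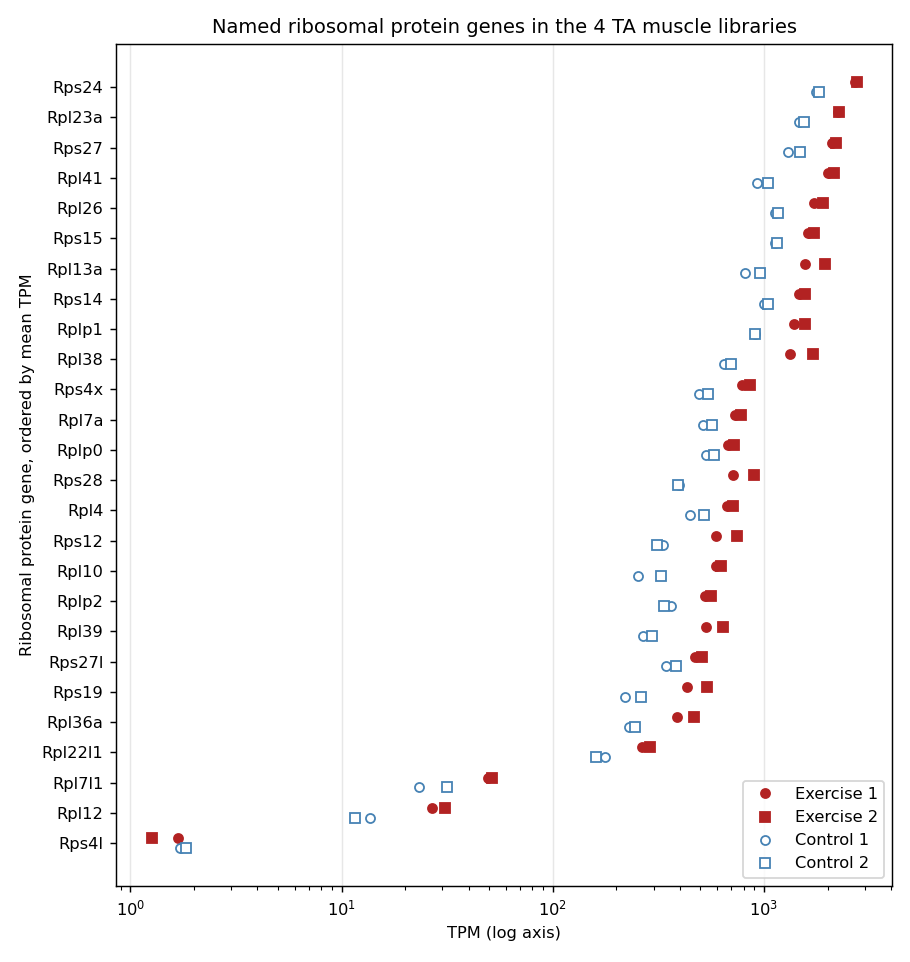
TPM (log axis) of the named ribosomal protein genes in each library, ordered by mean TPM. Filled red points are Exercise and open blue points Control libraries. For every gene but Rps4l both Exercise points lie right of both Control points, and the genes run between 1.26 TPM (Rps4l) and 2760 TPM (Rps24).

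The 5 largest rises on TPM as deposited, without copies added, were all in the large subunit. Rpl38, known in mice for its role in the translation of Hox mRNAs, had 1333 and 1710 TPM in Exercise and 649 and 695 TPM in Control. Its log2 fold change was 1.17 ± 0.16 (adjusted p = 0.00306), the largest of the 80 on TPM as deposited. Rpl12, at the base of the stalk where elongation factors dock, had 26.9 and 30.8 TPM in Exercise and 13.6 and 11.5 TPM in Control, a log2 fold change of 1.14 ± 0.15 (adjusted p = 0.00303). It was far less abundant than the other genes of that order of rise. Rpl41, a peptide so short that it is among the smallest proteins of the cell, had 2010 and 2136 TPM in Exercise and 927 and 1046 TPM in Control, a log2 fold change of 1.07 ± 0.13 (adjusted p = 0.00291). Rpl37 had 459 and 526 TPM in Exercise and 230 and 264 TPM in Control. Rpl27 had 364 and 406 TPM in Exercise and 193 and 210 TPM in Control. The 7 genes that rose under median-of-ratios scaling, a share of 8.75% against a background of 10.6%, were Rpl38, Rpl12, Rpl10, Rpl41, Rpl39, Rpl37 and Rpl27, with log2 fold changes there of 0.30 to 0.54. Annotated copies of Rpl10 and Rpl27 held 1.68 and 3.27 times the TPM of the gene, so their values are uncertain. Copies of Rpl37 held 0.53 times its TPM, and its log2 fold change on TPM as deposited, 1.00, was 0.64 with the copies added. Rpl37 and Rpl27 were picked out after their values were seen.

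In the small subunit the largest rises on TPM as deposited, without copies added, were those of Rps12, Rps28 and Rps19. Rps12 had 591 and 743 TPM in Exercise and 334 and 312 TPM in Control, a log2 fold change of 1.04 ± 0.15 (adjusted p = 0.00339). Rps28, a protein of the head of the subunit, had 712 and 900 TPM in Exercise and 397 and 391 TPM in Control. Rps19, needed to mature the small subunit and the gene most often mutated in Diamond-Blackfan anemia, had 433 and 539 TPM in Exercise and 221 and 262 TPM in Control. For each of them both Exercise libraries were above both Control libraries, as for 72.8% of all tested genes. With median-of-ratios scaling their adjusted p were 0.0680, 0.0609 and 0.0589, above the threshold. Rps6, the substrate of the S6 kinases downstream of mTOR, had 564 and 648 TPM in Exercise and 316 and 346 TPM in Control, a log2 fold change of 0.87 ± 0.13 (adjusted p = 0.00374). Rps27a, which is made as a fusion with ubiquitin, had 943 and 1031 TPM in Exercise and 534 and 579 TPM in Control, with a log2 fold change of 0.82. Neither of these was among the genes the naming rule gave, and both were chosen for their roles. Annotated copies of Rps28, Rps12 and Rps6 held 2.68, 0.51 and 0.41 times the TPM of the gene. With the copies added the log2 fold changes were 1.00 in Rps19, 0.92 in Rps12, 0.82 in Rps28 and 0.65 in Rps6. In all, 46 of 47 large subunit genes and 32 of 33 small subunit genes rose, against 55.3% of all tested genes, with median log2 fold changes of 0.78 and 0.76. With median-of-ratios scaling 7 of 47 and 0 of 33 rose, against 10.6%. At an unadjusted p under 0.05 in limma, 20 of the 80 rose and 2 fell. The share over all tested genes was not taken at that threshold, so 10.6% is no background for it. The ratio of summed large to summed small subunit TPM, which no scaling of a whole library changes, was 1.17 and 1.19 in Exercise and 1.14 and 1.14 in Control. The ratio was 1.04 times as high in Exercise (exact permutation p = 0.333).

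The lowest log2 fold changes included that of the protein that anchors the stalk. Rplp0 holds the pairs of Rplp1 and Rplp2 that bring elongation factors to the ribosome. It had 672 and 719 TPM in Exercise and 531 and 583 TPM in Control. Its log2 fold change of 0.32 ± 0.12 did not pass the test (adjusted p = 0.0610), and it was −0.32 with median-of-ratios scaling (adjusted p = 0.0442) and −0.02 with quantile normalization. Rplp1 had 1380 and 1565 TPM in Exercise and 908 and 909 TPM in Control, with a log2 fold change of 0.69 ± 0.13 (adjusted p = 0.00587). Rplp2 had 526 and 563 TPM in Exercise and 361 and 334 TPM in Control, with a log2 fold change of 0.65 ± 0.12 (adjusted p = 0.00618). The anchor of the stalk thus had the lowest value of the 3. Rpl7a had 732 and 780 TPM in Exercise and 512 and 566 TPM in Control, with a log2 fold change of 0.49. Rpl4, which lines the narrow part of the peptide tunnel, had 669 and 716 TPM in Exercise and 448 and 521 TPM in Control. For both genes all Exercise values were above all Control values.

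To compare the genes with each other whatever the scaling, the median of the tested members was subtracted in each library and the fit repeated. In limma no gene was then higher (0 of 80) and 3 were lower at an adjusted p under 0.05. The background over all tested genes was 5.01% higher and 28.8% lower. The 3 were Rplp0 (−0.45, adjusted p = 0.0159), Rps27l (−0.34, adjusted p = 0.0306) and Rps4l (−0.95, adjusted p = 0.0207). At an unadjusted p under 0.05 the counts were 6 higher and 7 lower, for which no background was taken. Rpl38 had the highest value, 0.39 with an adjusted p of 0.0503. These calls were sensitive to single libraries: without Exercise replicate 1, Control replicate 1 or Control replicate 2 the count lower was 1, and without Exercise replicate 2 it was 0.

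The paralogs, close relatives of single members, differed in level and in change. Rps27l, a p53-responsive relative of Rps27, had 473 and 509 TPM in Exercise and 342 and 382 TPM in Control, with a log2 fold change of 0.44 ± 0.13 (adjusted p = 0.0233). Rpl22l1, a relative of Rpl22, had 265 and 288 TPM in Exercise and 176 and 160 TPM in Control (log2 fold change 0.72 ± 0.12, adjusted p = 0.00498). Rpl7l1, which takes part in large subunit assembly, had 49.4 and 51.7 TPM in Exercise and 23.3 and 31.4 TPM in Control (0.88 ± 0.17, adjusted p = 0.00645). These 3 rose on TPM as deposited, at levels below the median ribosomal protein gene in every library, and with median-of-ratios scaling none of them passed the test. Rps4l had 1.68 and 1.26 TPM in Exercise and 1.71 and 1.84 TPM in Control, with a log2 fold change of −0.17 ± 0.17 (adjusted p = 0.411). Rpl10l and Rpl39l, both known from testis, did not pass the filter. Rpl10l was listed at 0 in all 4 libraries, and Rpl39l had 0.490 and 0.210 TPM in Exercise and 0.660 and 0 TPM in Control.

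Rpl10, Rpl39, Rpl36a and Rps4x lie on the X chromosome, and the sex markers given above differed between the same libraries. Rpl10, which joins late in the maturation of the large subunit, had 593 and 623 TPM in Exercise and 254 and 326 TPM in Control (log2 fold change 1.08 ± 0.15, adjusted p = 0.00332). Rpl39, which lines the tunnel near its exit, had 534 and 638 TPM in Exercise and 267 and 295 TPM in Control (1.05 ± 0.14, adjusted p = 0.00306). Rpl36a had 388 and 467 TPM in Exercise and 228 and 244 TPM in Control (0.85 ± 0.14, adjusted p = 0.00426). Annotated copies of Rpl36a held 2.38 times the TPM of the gene, so its value is uncertain, and it was 0.67 with the copies added. Rps4x had 786 and 861 TPM in Exercise and 492 and 543 TPM in Control (0.67 ± 0.13, adjusted p = 0.00635). All of them rose on TPM as deposited, and Rpl10 and Rpl39 rose with median-of-ratios scaling too. Copies of Rpl10 held 1.68 times its TPM, so its value is uncertain as well. On TPM as deposited its log2 fold change was 0.56 with the copies added. The part of the sex markers in these values was not tested.

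Ribosomal protein genes have many processed copies in the genome, and reads can be shared among them. The table held 2228 rows annotated as copies, 617 of them above 0 in some library and 88 with enough signal to be tested. The TPM of all copies summed to 13549 and 14539 in Exercise and 8828 and 9606 in Control. For 12 genes the copies together exceeded the gene itself. Gm10443, a copy of Rps28, had 1943 and 2063 TPM in Exercise and 1038 and 1355 TPM in Control, more than Rps28 itself. The values of these 12 genes are therefore uncertain. When the TPM of the copies was added to each gene, an alternative chosen after seeing the data, 77 of 80 rose, where the background was 55.8%, and the median log2 fold change was 0.71. Rpl10 then had a log2 fold change of 0.56, and its main copy, Rpl10-ps3, which is on chromosome 9 and annotated as protein-coding, had 798 and 845 TPM in Exercise and 652 and 714 TPM in Control. Rpl5, which binds 5S rRNA, had 51.8 and 62.7 TPM in Exercise and 31.7 and 31.5 TPM in Control (log2 fold change 0.83), but −0.57 with its copies (adjusted p = 0.0529). Its copy Gm15500 had 45.3 and 0 TPM in Exercise and 93.6 and 76.5 TPM in Control. Over the 80 genes the size of the copies relative to the gene and the log2 fold change had a Spearman correlation of 0.50, as a description.

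**Figure D4:**
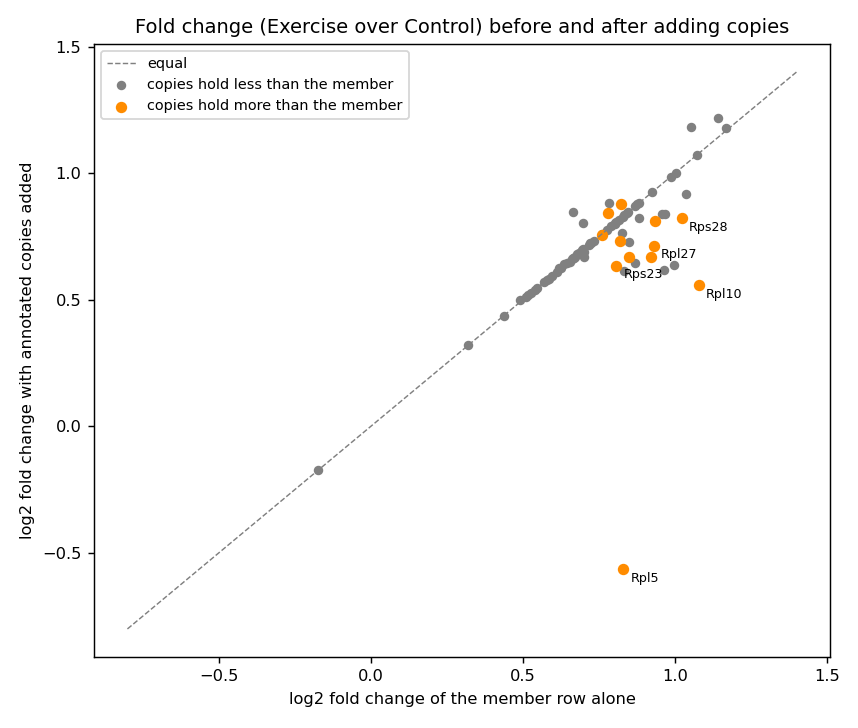
Log2 fold change (Exercise over Control) of each tested ribosomal protein gene from its own row (x axis) and with the TPM of its annotated copies added (y axis). Orange points are the 12 genes whose copies hold more TPM than the gene. Most points lie on the line of equality, and Rpl5 (0.83 against −0.57) and Rpl10 (1.08 against 0.56) lie farthest below it.

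Transcript length, which enters TPM, was also set beside the values. The 79 tested genes with a length in GENCODE vM21 had a Spearman correlation of −0.00 between length and log2 fold change. Among the genes in the shortest of 4 equal length classes, which held 72 of these genes, the median log2 fold change was 0.43 and 48.9% of genes rose. The median of the ribosomal protein genes, 0.78, was above that of this class, of which they are a part, a difference given without a test. As a second kind of ribosome in the same cells, 76 mitochondrial ribosomal protein genes were tested. Of these 38 rose and 1 fell (50% higher, against 55.3% of all tested genes), with a median log2 fold change of 0.36, against 0.53 over all tested genes, and a ratio of summed TPM of 1.20. With median-of-ratios scaling 1 rose and 26 fell, against a background of 10.6% and 16.8%. The difference between the 2 kinds of ribosomal protein was not tested.

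Other genes of the translation machinery were taken from lists. Of 4 further ribosome components, 3 rose, against 55.3% of all tested genes, and 0 rose with median-of-ratios scaling, against 10.6%. Fau, which encodes a small subunit protein fused to a ubiquitin-like one, had 465 and 533 TPM in Exercise and 268 and 274 TPM in Control (log2 fold change 0.87, adjusted p = 0.00345). Rack1, a scaffold on the small subunit, had 409 and 466 TPM in Exercise and 233 and 260 TPM in Control. For both genes the Exercise values lay above the Control values. Of 18 translation factors and other genes with 5' TOP mRNAs, 17 rose, against 55.3% of all tested genes, and 1 rose with median-of-ratios scaling, against 10.6%. Their median log2 fold change was 0.56, close to the 0.53 over all tested genes. That one was Eef1a1, the factor that brings tRNA to the ribosome, with 3317 and 3684 TPM in Exercise and 1313 and 1543 TPM in Control, a log2 fold change of 1.30 ± 0.14 (adjusted p = 0.00282). Tpt1 had 2963 and 3246 TPM in Exercise and 2196 and 2235 TPM in Control, a log2 fold change of 0.49.

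Most genes of ribosome production rose on TPM as deposited too, but few did with median-of-ratios scaling. The background was the same, 55.3% higher on TPM as deposited and 10.6% with median-of-ratios scaling. Of 35 biogenesis genes, 33 rose and 0 fell, with a median log2 fold change of 0.80 (2 rose and 1 fell with median-of-ratios scaling). Nop58, a core protein of the box C/D particles that methylate ribosomal RNA, had 87.7 and 94.4 TPM in Exercise and 31.5 and 40.4 TPM in Control, a log2 fold change of 1.33 ± 0.15 (adjusted p = 0.00285). Ncl, nucleolin, had 118 and 142 TPM in Exercise and 64.5 and 76.7 TPM in Control. Of 15 RNA polymerase I genes, which transcribe ribosomal RNA, 12 rose (0 with median-of-ratios scaling), and Polr1a, the largest subunit, had 15.9 and 19.0 TPM in Exercise and 8.84 and 9.09 TPM in Control. Of 14 regulators of ribosome production, 9 rose, with a median log2 fold change of 0.51, against 0.53 over all tested genes. Myc, which drives ribosomal genes, had 10.8 and 12.4 TPM in Exercise and 4.27 and 5.92 TPM in Control, and Rps6kb1, the S6 kinase, had 31.1 and 37.1 TPM in Exercise and 15.2 and 18.3 TPM in Control. Akt1s1, an inhibitory partner of mTOR, had 48.6 and 56.3 TPM in Exercise and 48.8 and 51.5 TPM in Control (adjusted p = 0.709). With median-of-ratios scaling 0 of the regulators rose and 4 fell, against a background of 10.6% higher and 16.8% lower.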

How the data were processed

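RNA from TA muscle of 2 Exercise and 2 Control libraries was analysed. The authors deposited TPM for 57180 genes, rounded to 2 decimals. According to the submitters' processing notes, the tools were HISAT2, StringTie and fastp (no versions given) and the genome was GRCm39. SeqPrep and Sickle appear in the paper's methods. For the library kit the paper gives NEBNext Ultra, and the labels give Illumina Stranded mRNA Prep. TPM keeps no counts, so the study's count test (DEGseq) was not run, depth is unknown and precision rests on 2 libraries in each group. A gene entered the fit if 2 or more of the 4 libraries reached 1 TPM. Values were fitted as log2(TPM + 1) in R 4.3.3 by limma 3.58.1 (trended eBayes, no covariate), with Benjamini-Hochberg adjustment over 13288 genes and a threshold of 0.05. A pseudocount of 1 understates the change of low genes. The fit was also run on simulated data with known changes in a small part of the genes. That simulation held no shift of whole libraries, so it cannot speak to their scaling. The members and lists were chosen with earlier results of these data known. The text names the 10 tested members of highest mean TPM, the 8 with the highest and the 8 with the lowest log2 fold change, the stalk proteins, paralogs, X-linked members and members below the filter, and in each other list the 2 genes with the smallest p and the 2 of highest mean. Genes named for other reasons were chosen after their values were seen. Some genes of this rule are not reported here. Chromosomes and lengths come from GENCODE vM21 and start regions from RefSeq (GRCm38.p6). No coordinates of the authors' build were used. Alternatives were other scalings, pseudocounts, filters and limma settings, protein-coding genes alone, a stricter threshold, copies added, the replicate number as a block, and leaving out each library. Tables were made in Python 3.11.15 with numpy 2.4.6, pandas 2.3.3 and scipy 1.17.1, and plots with matplotlib 3.10.9.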

Additional observations from a re-analysis of the deposited data

How the results depend on the processing

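The count of members that rose (78) moved to 7 with median-of-ratios scaling and to 4 with copies added as well, where 1 and 2 members fell. Leaving out 1 library gave counts that rose between 36 and 77. The median log2 fold change of 0.78 became 0.15 with median-of-ratios scaling, 0.079 with copies added as well, 0.44 with quantile normalization and 0.38 without the 50 highest genes. The ratio of summed TPM was 1.07, 1.35 and 1.27 under those 3 scalings without copies added. Against the median member, the count higher (0) became 3 with a pseudocount of 5 and with no filter, 1 with a mean of at least 5 TPM, a robust fit or protein-coding genes alone, 2 with quantile normalization, and 4 with copies added, and it ran between 0 and 1 with 1 library left out. The count lower (3) was 0 at an adjusted p under 0.01 and ran between 0 and 1 with 1 library left out. The large over small ratio was 1.02 without the 5 highest members. With median-of-ratios scaling the log2 fold change was positive in 64 of the 80 tested members. Among the members named here it turned negative in Rps27 (−0.012), Rps24 (−0.026), Rpl23a (−0.053), Rps14 (−0.066) and Rps15 (−0.091). It also turned negative in Rpl4 (−0.12), Rpl7a (−0.15), Rps27l (−0.20) and Rplp0 (−0.32). Members not named here turned negative too. Rplp0 was also negative with quantile normalization (−0.023) and without the 50 highest genes (−0.082). The cause was not tested.

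With the replicate number as a block (replicate block), 79 members rose and Rplp0 passed the test (adjusted p = 0.0411). The share over all tested genes was not taken for this fit. With the numbers crossed between the groups, 78 members rose, where 8419 of the 13288 tested genes were called. Deviations of libraries with the same number had a correlation of −0.05 over all tested genes, a value that leaves out any shift common to all genes. Replicate 2 was above replicate 1 for 9577 of the 13288 tested genes in Exercise and for 9059 in Control. Whether the numbers pair the libraries cannot be told from 2 libraries per group. TPM keeps no depth, which limits the precision to the spread of 2 libraries per group.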

Other observations

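Genes that host small nucleolar RNAs, many of which also carry 5' TOP starts, were listed after the data had been seen. Of 9 such genes 8 rose in Exercise on TPM as deposited, with a median log2 fold change of 0.83, and 2 rose with median-of-ratios scaling, against 55.3% and 10.6% of all tested genes. Snhg1 had 73.1 and 78.0 TPM in Exercise and 28.2 and 33.6 TPM in Control, a log2 fold change of 1.27 ± 0.14 in limma (adjusted p = 0.00282), and it was 0.64 with median-of-ratios scaling (adjusted p = 0.0114). Gas5 had 361 and 392 TPM in Exercise and 215 and 209 TPM in Control, a log2 fold change of 0.83 ± 0.12 (adjusted p = 0.00341). Rpl3 and Rpl3l, which the set left out, differed in direction. Rpl3 had 460 and 539 TPM in Exercise and 188 and 212 TPM in Control, a log2 fold change of 1.32. Rpl3l, the form of striated muscle, had 126 and 154 TPM in Exercise and 229 and 237 TPM in Control, a log2 fold change of −0.74 (adjusted p = 0.00620).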
